A study of Mus musculus with 4 samples.

Results

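The genes described here were grouped as genes of lipid-associated and monocyte-derived macrophages: Trem2, Clec7a, Ccr2, Itgax, Cd9, Gpnmb, Cd68, Spp1, Lgals3 and Lyz1. They were picked by name, with earlier results of these arrays known. Not all of them are specific to these cells, as given below for Cd9, Itgax, Cd68 and Lyz1. A probe was taken for a gene when the platform annotation gave it that gene alone. Of the 10 genes 9 had a probe, with 11 probes in all and a value on every array for each. Spp1, which encodes osteopontin, had none and has no value here. The 9 genes stand among 13705 genes measured on all 4 arrays, and 8 of them rest on a single probe while Lgals3 has 3.

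Livers of male mice of the inbred strain C57Bl/6J were compared on two-colour oligonucleotide arrays, 1 array for each diet and time. The groups were an atherogenic diet with high fat for 24 weeks, the same for 6 weeks, an atherogenic diet for 24 weeks and an atherogenic diet for 6 weeks, which is called plain below. Each of these livers (Cy5) was set against livers of mice on standard chow (Cy3), fed for the matching time except for the plain 6-week array, whose chow has no stated duration. The sources used here do not give the diets' composition, whether animals were pooled or whether arrays shared chow RNA. Values are log2 ratios of diet over chow, and folds rest on reading the deposited numbers as base 10 logarithms. With 1 array per condition the errors and p-values come from the spread between 4 conditions and not between animals. For high fat and duration only 1 residual degree of freedom was left. Those errors therefore rest largely on the variance that limma shares over all genes. Diet was always in Cy5, so a dye preference of a probe and an effect of diet cannot be told apart. In whole liver, more macrophages and more RNA per macrophage cannot be told apart either.

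The liver holds resident macrophages, the Kupffer cells, which clear particles from portal blood and normally renew themselves. When the liver is loaded with fat or injured, blood monocytes enter through the receptor CCR2 and become macrophages. Some of these take on a lipid-handling state known from fat tissue, atherosclerotic plaques and fatty liver, in which the lipid receptor TREM2, the tetraspanin CD9 and the lysosome-linked glycoprotein GPNMB are prominent.

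The first comparison asked whether these genes stood above chow across both diets and both times. Of the 9 genes 8 rose at an adjusted p under 0.05, where 6.25% of all genes rose, and no member fell, where 5.72% of all genes fell. Because the members were chosen with earlier results of these arrays known, this count is a description and no test of the set. The same 8 genes were above 0 on all 4 arrays, as were 20.7% of all genes. Their mean log2 ratios ran between 0.52 for Lgals3 and 2.22 for Lyz1, and the median over the 9 members was 1.03, against 0 over all genes. The Lgals3 probes disagreed, at 1.74, -0.08 and -0.09, so its mean matches none of them. Itgax was the member that did not pass. The call was kept by Trem2, Cd9, Gpnmb, Cd68 and Lyz1 when any 1 array was left out, but not by Clec7a, Ccr2 and Lgals3. Without the plain 24-week array 5 of the 8 passed, since Clec7a (adjusted p = 0.0631), Ccr2 (0.136) and Lgals3 (0.0881) did not. Without the high-fat 6-week array Ccr2 (0.0928) and Lgals3 (0.0599) did not pass, and without the plain 6-week array Ccr2 (0.0746) did not.

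**Figure D1:**
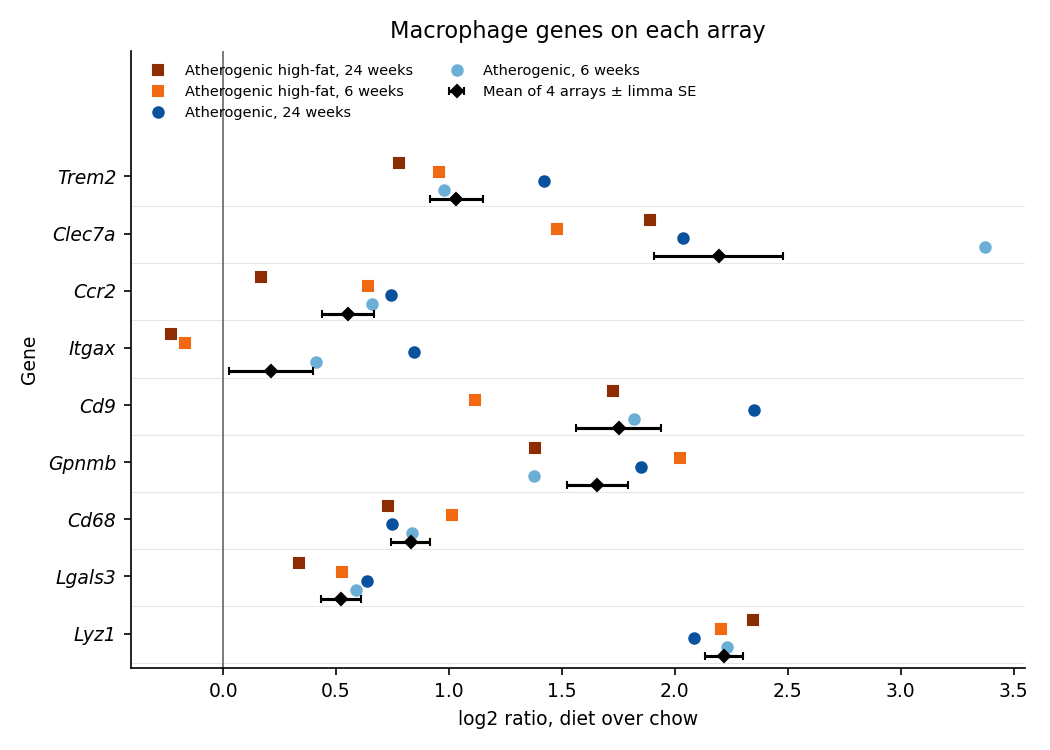
Log2 ratio of diet over chow (x axis) of the 9 genes with a probe (y axis); squares are high-fat arrays, circles plain arrays, and black diamonds the mean of the 4 arrays with its limma standard error. Lyz1 lies between 2.09 and 2.35 on the 4 arrays, Clec7a spans 1.48 to 3.37, and Itgax is the gene with arrays on both sides of 0.

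The stretch around the start of transcription of 4 of the genes that rose is shown because they span both surface receptors and lysosomal proteins. Each stretch covers 250 bases before and 50 after the RefSeq start on GRCm38.p6, written along the gene; Clec7a has a second start a few bases away. Capitals mark matches, on either strand, to the letters GAGGAA (bound by the myeloid factor PU.1), TGANTCA (AP-1) and TTNNGNAA (C/EBP), where N is any base; none of the matches overlap.
Trem2 promoter (chr17:48346151-48346450, + strand): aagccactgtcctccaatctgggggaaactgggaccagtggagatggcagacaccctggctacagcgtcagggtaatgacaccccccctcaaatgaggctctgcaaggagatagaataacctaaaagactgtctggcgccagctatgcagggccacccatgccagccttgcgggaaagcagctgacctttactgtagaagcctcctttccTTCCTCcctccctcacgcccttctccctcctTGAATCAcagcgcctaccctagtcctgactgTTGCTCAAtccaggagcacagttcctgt
Clec7a promoter (chr6:129472730-129473029, - strand): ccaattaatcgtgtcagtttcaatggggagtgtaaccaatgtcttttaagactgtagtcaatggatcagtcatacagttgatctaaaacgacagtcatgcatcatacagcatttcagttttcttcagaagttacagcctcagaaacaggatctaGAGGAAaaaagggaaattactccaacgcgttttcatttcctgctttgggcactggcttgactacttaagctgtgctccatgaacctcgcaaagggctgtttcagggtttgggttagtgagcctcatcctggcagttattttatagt
Cd68 promoter (chr11:69666121-69666420, - strand): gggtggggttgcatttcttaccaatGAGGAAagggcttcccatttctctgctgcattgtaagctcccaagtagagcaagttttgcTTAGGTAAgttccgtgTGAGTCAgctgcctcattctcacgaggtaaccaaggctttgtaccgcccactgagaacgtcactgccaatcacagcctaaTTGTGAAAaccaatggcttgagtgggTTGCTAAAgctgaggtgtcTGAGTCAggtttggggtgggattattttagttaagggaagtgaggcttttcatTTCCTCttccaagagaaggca
Gpnmb promoter (chr6:49036268-49036567, + strand): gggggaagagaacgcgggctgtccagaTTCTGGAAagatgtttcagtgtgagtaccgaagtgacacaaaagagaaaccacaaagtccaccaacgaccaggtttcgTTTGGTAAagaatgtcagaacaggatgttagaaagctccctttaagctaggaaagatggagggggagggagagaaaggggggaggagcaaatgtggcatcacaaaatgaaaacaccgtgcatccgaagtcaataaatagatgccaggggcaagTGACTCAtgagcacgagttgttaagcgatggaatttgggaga

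Counting every start listed for a gene, and Spp1 too, the 10 genes had 12 stretches. GAGGAA lay in 5 of 12 stretches, those of Trem2 and Cd68, a stretch of Spp1 and both of Clec7a, and in 28.3% of 32851 mouse stretches of 300 bases. The stretches of Clec7a overlap and hold the same match, so GAGGAA was found for 4 of 10 genes. TGANTCA lay in 4 of 12 (Trem2, Itgax, Gpnmb and Cd68) and in 7.8% of all stretches. TTNNGNAA lay in 7 of 12 and in 40.7% of all. The E-box letters CACGTG of the MiT/TFE factors of lysosome genes were found in 0 of 12 stretches, against 7.2% of all. The stretches of Cd9 and Lgals3, which are not printed, held no match to any of these letters. In Clec7a the GAGGAA match began 96 bases before the start printed above. These are matches of letters and no measurement of binding.

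Among the surface receptors, Clec7a, which encodes the beta-glucan receptor dectin-1, had log2 ratios of 1.89 and 1.48 on the high-fat arrays at 24 and 6 weeks and 2.04 and 3.37 on the plain arrays at 24 and 6 weeks. The plain 6-week array stood apart from the other 3, which lay within 1.48 and 2.04. Its mean was 2.19 ± 0.29 (limma standard error over 4 arrays; adjusted p = 0.00882), or 4.58-fold, and it ranked 10th of all genes by mean ratio. Trem2, a receptor for lipids and lipoproteins, had log2 ratios of 0.78 and 0.96 with high fat and 1.42 and 0.98 with the plain diet at 24 and 6 weeks. It rose by 1.03 ± 0.12 (adjusted p = 0.00601), about the same as a doubling (2.05-fold), with the plain 24-week array highest. Ccr2, the receptor that draws monocytes toward CCL2, stood at 0.17 and 0.64 with high fat and at 0.74 and 0.66 with the plain diet at 24 and 6 weeks. The high-fat 24-week value was below the other 3, which lay close together, at the 76.4th percentile of genes on that array. Its mean was 0.55 ± 0.12 (adjusted p = 0.0312), a 1.47-fold rise.

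TREM2 has no signalling tail of its own and works through the adaptor DAP12, encoded by Tyrobp. Tyrobp rose by 1.62 ± 0.09 (adjusted p = 0.00118), with 1.80 and 1.47 on the high-fat arrays and 1.56 and 1.66 on the plain arrays at 24 and 6 weeks. The Fc receptor gamma chain gene Fcer1g, another adaptor of this kind, rose by 1.59 ± 0.12, and the adaptor gene Hcst (DAP10) stood at 0.53 ± 0.13 without passing (adjusted p = 0.0515). Syk, the kinase that both TREM2 and dectin-1 engage, stood at 0.02 ± 0.09 (adjusted p = 0.894). In a list of 14 measured genes of this signalling route 5 rose (35.7%), where 6.25% of all genes rose. None fell, where 5.72% of all genes did. The genes that rose were Blnk (1.38), Btk (0.61), Lat2 and the adaptor genes Tyrobp and Fcer1g, and the list median was 0.34. Lat2 (0.51) was named after its value was seen. Card9, which relays dectin-1 signals, had no probe.

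The ligands of CCR2 did not move alike. Ccl2 had log2 ratios of 0.36 and 1.57 with high fat and 0.44 and 1.67 with the plain diet at 24 and 6 weeks, so both 6-week arrays were above both 24-week arrays. Its mean of 1.01 ± 0.25 passed narrowly (adjusted p = 0.0483), and its 24-week minus 6-week difference of -1.22 did not (adjusted p = 0.147). Ccl7 (0.14 ± 0.16) and Ccl12 (0.04 ± 0.10) did not pass (adjusted p = 0.58 and 0.83). Apoe, a lipoprotein that TREM2 binds, stood at -1.10 and -1.24 with high fat and at 0.59 and 0.86 with the plain diet at 24 and 6 weeks, and both of its probes lay at values shared by many probes on some array, so its size cannot be read.

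Of the adhesion proteins, Cd9, a tetraspanin of the cell surface, had log2 ratios of 1.73 and 1.11 with high fat and 2.35 and 1.82 with the plain diet at 24 and 6 weeks. All 4 values lay at or above the 99.5th percentile of genes on their array. Its mean was 1.75 ± 0.19 (adjusted p = 0.00487), a 3.37-fold rise. Itgax encodes integrin alpha X (CD11c), which pairs with the beta 2 chain and marks dendritic cells as well as lipid-laden macrophages. It stood at -0.23 and -0.17 with high fat and at 0.84 and 0.41 with the plain diet at 24 and 6 weeks. The diets thus differed in sign, as they did for 19.5% of all genes. Its mean over the 4 arrays, 0.21 ± 0.19, did not pass (adjusted p = 0.477). The gene of its partner chain, Itgb2, stood at -0.05 ± 0.11 (adjusted p = 0.782).

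Gpnmb and Cd68 encode membrane glycoproteins of the lysosome and late endosome. Gpnmb had log2 ratios of 1.38 and 2.02 with high fat and 1.85 and 1.38 with the plain diet at 24 and 6 weeks. High and low values occurred in both diets and at both times. Its mean was 1.66 ± 0.14 (adjusted p = 0.0022), a 3.15-fold rise. Cd68, a general marker of macrophages, stood at 0.73 and 1.01 with high fat and at 0.75 and 0.84 with the plain diet at 24 and 6 weeks. The 4 values were close together (SD 0.13), around a mean of 0.83 ± 0.09 (adjusted p = 0.00479) or a 1.78-fold rise. Among 29 measured lysosome genes 8 rose (27.6%) and 3 fell, where 6.25% of all genes rose and 5.72% fell. The list median was 0.14, and most genes of the list did not pass. The tetraspanin Cd63 rose by 1.67 and the cholesterol carrier Npc2 by 1.25, while the mannosidase gene Man2b1 fell by 2.17. Of the MiT/TFE factor genes, whose products switch on lysosome genes and Gpnmb, Tfeb stood at -0.72 ± 0.10 (adjusted p = 0.00925) as a mean of probes at 0.03 and -1.46, which disagree, and Mitf (-0.19) and Tfe3 (-0.32) did not pass; these 3 genes were named after their values were seen.

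The secreted proteins gave the steadiest and the least certain member. Lyz1, a lysozyme that cleaves bacterial cell walls, had log2 ratios of 2.35 and 2.20 with high fat and 2.09 and 2.23 with the plain diet at 24 and 6 weeks. The SD over the 4 arrays was 0.11, and the mean of 2.22 ± 0.08 (adjusted p = 0.000807) is a 4.65-fold rise. Read as natural or base 2 logarithms, the deposited numbers would give Lyz1 a mean log2 ratio of 0.96 or 0.67, with the same p. In the mouse, Lyz2 is the form usual in macrophages and Lyz1 that of intestinal Paneth cells. Lyz2, a close copy of Lyz1, had no probe of its own, and whether the Lyz1 probe also binds Lyz2 RNA was not tested.

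Lgals3 encodes galectin-3, a lectin that binds beta-galactosides and is abundant in activated macrophages. Its 3 probes did not agree. Probe AGmmB251505 had log2 ratios of 1.27 and 1.85 with high fat and 2.02 and 1.82 with the plain diet at 24 and 6 weeks, with a mean of 1.74 ± 0.14 in the fit over all probes (adjusted p = 0.00126), in which 5.32% of 27870 probes rose. Probe AGmmC190221 had -0.21 and -0.13 with high fat and -0.10 and 0.11 with the plain diet, with a mean of -0.08 ± 0.10 (adjusted p = 0.603). Probe AGmmB130817 had a mean of -0.09 ± 0.09 (adjusted p = 0.534). The high and the first of the low probes are annotated to the same transcript record, and differed by 1.82. Over 70 records with exactly 2 probes the median difference was 0.23, and 1 pair, this one, differed so much. The gene mean of 0.52 ± 0.09 (adjusted p = 0.0168) therefore matches none of its probes, and the median of the probes gives -0.02 (adjusted p = 0.874).

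**Figure D2:**
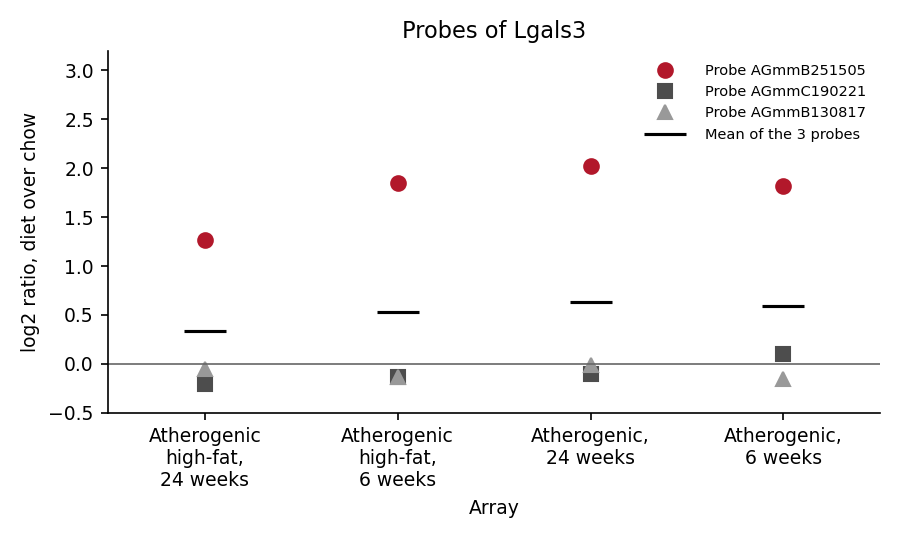
Log2 ratio of diet over chow (y axis) of the 3 Lgals3 probes on each array (x axis), with horizontal bars at their mean. One probe lies between 1.27 and 2.02, the other two within -0.21 and 0.11, and the mean of the probes between 0.34 and 0.64.

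Genes that belong to the same cell states were described next. These lists were drawn up with earlier results of these arrays known, so their counts are descriptions to be read beside the 6.25% of all genes that rose. Of 29 further genes of the lipid-associated macrophage programme 14 rose (48.3%) and 2 fell, with a median of 0.50. The lysosomal protease Ctss rose by 2.32, lipoprotein lipase Lpl by 1.82, the protease inhibitor Cstb by 1.69 and Cd63 by 1.67. Igf1 (-0.64) and Axl (-0.80), which encode a growth factor and a receptor for dying cells, were the genes that fell, and were named after their values were seen. Of 22 genes of infiltrating monocytes 8 rose (36.4%) and none fell: S100a11 by 1.97, Plac8 by 1.66, the calcium-binding protein gene S100a4 by 1.57 and the Fc receptor gene Fcgr4 by 0.97 were the largest. The monocyte surface genes Ly6c2 (-0.05) and Itgam (-0.09), named after their values were seen, did not pass. Of 22 genes of Kupffer cells 5 rose and 2 fell. All chains of complement C1q rose (C1qb by 1.74, C1qa by 1.14, C1qc by 1.03), and the complement receptor gene Vsig4 fell by 1.33. The other genes that rose were Cd5l (0.74) and Il18bp (0.56), and Fcna (-0.51) also fell. Clec4f (0.15), Marco (0.21), Cd163 (-0.34) and Folr2 (0.28) did not pass. The genes from Cd5l to Folr2 were named after their values were seen. The general mouse macrophage marker Adgre1 (F4/80) stood at 0.46 ± 0.13 (adjusted p = 0.0606).

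Markers of other liver and blood cells also moved with diet, and their part in the members' ratios was not tested. Of 17 pan-leukocyte genes 7 rose and 1 fell (median 0.75), with Cd53 at 1.33 and Coro1a at 1.30, while Ptprc (CD45) stood at 0.32 ± 0.08 (adjusted p = 0.053), a mean of probes at 0.63 and 0.01. Of 15 dendritic cell genes 6 rose and 1 fell (median 0.33). The rises were led by the MHC class II genes H2-Aa (2.29), H2-Eb1 (1.69) and H2-Ab1 (1.41), which macrophages share, with Cd74 at 1.15. Probes disagreed for Cd74 (1.36, 2.09 and 0), for H2-Ab1 (from -0.22 to 2.17) and for H2-Eb1 (from 0.44 to 2.42). Of the list's other genes Irf8 (0.65, adjusted p = 0.0273) and Ccr7 (0.50, adjusted p = 0.0213) rose, Batf3 (-0.85, adjusted p = 0.0293) fell, and Flt3 (-0.03), Zbtb46 (0.01) and Xcr1 (0.33) did not pass; these 6 genes were named after their values were seen. Of 12 neutrophil genes 3 rose, S100a9 (2.70), S100a8 (2.34) and Lcn2 (2.22), and Elane fell by 0.64. The others did not pass, among them Camp (0.55), Ngp (0.54), Csf3r (0.31), Ltf (0.30), Cxcr2 (0.08), Prtn3 (-0.03) and Mpo (-0.32). These others were named after their values were seen. Of 16 bile duct cell genes 5 rose and none fell (median 0.39), led by Tspan8 (2.19), Anxa5 (1.32) and Bicc1 (1.11). Epcam (0.99, adjusted p = 0.0895), Krt19 (0.34), Krt7 (0.11) and Sox9 (-0.02), named after their values were seen, did not pass. Bile duct cells also express Cd9. Of 18 stellate cell and myofibroblast genes 8 rose and 2 fell (median 0.42), and the rises were led by Col1a2 (1.75) and Vim (1.41). Col1a1 (0.58) and Lrat (0.48) also rose, and Pdgfrb (-0.40) and Ecm1 (-0.35) fell. Acta2 (0.12), Des (-0.08) and Pdgfra (-0.29) did not pass. The genes from Col1a1 to Pdgfra were named after their values were seen. Of 17 lymphocyte genes 2 rose, Nkg7 (0.46) and Gzma (0.36), with a median of 0, and of 19 hepatocyte genes none rose and 2 fell, G6pc (-0.59) and Apoc3 (-0.54).

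**Figure D3:**
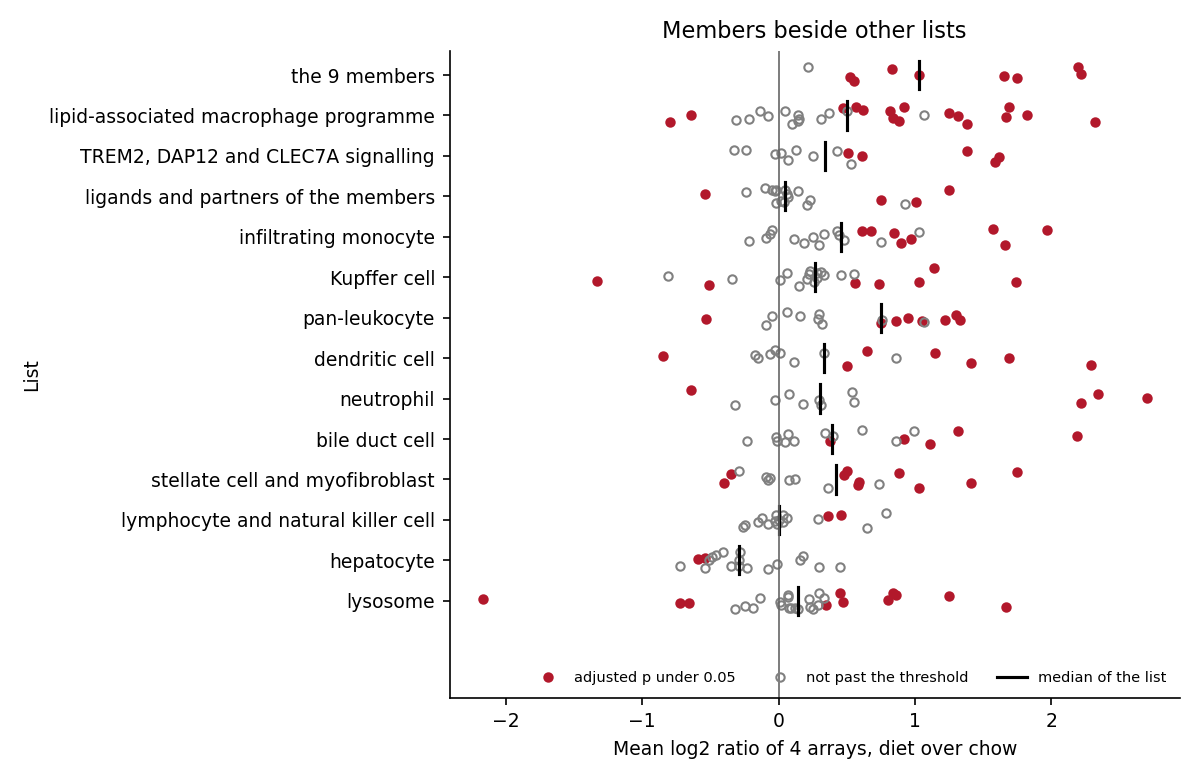
Mean log2 ratio of diet over chow over the 4 arrays (x axis) for each gene of each list (rows); filled points passed an adjusted p under 0.05, open points did not, and vertical lines are medians. The median of the 9 members is 1.03, and those of the other lists lie between -0.29 (hepatocyte) and 0.75 (pan-leukocyte).

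The second comparison asked what added high fat changed, as the mean of high-fat minus plain values within each time. Of the 9 members 2 were lower with high fat at an adjusted p under 0.05, where 7.25% of all genes were lower, and none was higher, where 3.99% were. Itgax was lower by 1.07 at 24 weeks and by 0.58 at 6 weeks, a mean difference of -0.83 ± 0.17 (limma SE; adjusted p = 0.0293). Cd9 was lower by 0.62 and 0.70, a mean of -0.66 ± 0.14 (adjusted p = 0.0321), with mean ratios of 1.42 with high fat and 2.08 with the plain diet. Clec7a differed by -1.02 ± 0.35 without passing (adjusted p = 0.0939), and its pairs were unlike, at -0.15 at 24 weeks and -1.89 at 6 weeks. For Trem2 the pairs were -0.64 and -0.02, and for Ccr2 -0.58 and -0.02, at 24 and 6 weeks (adjusted p = 0.236 and 0.267). Lyz1 differed by 0.12 with a 95% interval of -0.23 to 0.46, Cd68 by 0.08 (-0.26 to 0.41), Gpnmb by 0.09 (-0.49 to 0.67) and Lgals3 by -0.18 (-0.52 to 0.16), so these intervals hold differences in either direction.

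Several of these differences depend on the scale of the arrays. The SD over all probes was 0.39 and 0.37 on the high-fat arrays and 0.46 and 0.53 on the plain arrays at 24 and 6 weeks. With all arrays scaled to a common interquartile range Cd9 differed by 0.09 (adjusted p = 0.604) and Lyz1 by 1.15 (adjusted p = 0.0153), while Itgax stayed at -0.79 (adjusted p = 0.0397). On that scale Clec7a differed by -0.01 (adjusted p = 0.978), Gpnmb by 0.84 (adjusted p = 0.132) and Cd68 by 0.47 (adjusted p = 0.0821). Without scaling, 7 of 17 pan-leukocyte genes were lower with high fat, among them Cybb (-0.98), Arhgdib (-0.86) and Coro1a (-0.64). So were 5 of 22 monocyte genes and 5 of 22 Kupffer cell genes. Over all genes 7.25% were lower and 3.99% higher. In the lipid-associated macrophage programme 4 of 29 genes were lower and 1 was higher. The higher gene was Cd36, by 0.73 (adjusted p = 0.0329), named after its values were seen. Whether the differences of list genes depend on the scale of the arrays was not tested. The monocyte gene Ly6c2 was higher with high fat by 1.07 (adjusted p = 0.0158) and was named after its values were seen. Hepatocyte genes were lower in 10 of 19 cases and higher in 1, and 8 of the 19 had a probe at a value shared by many probes. Their part in the members' differences was not tested. No member probe lay at such a value.

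**Figure D4:**
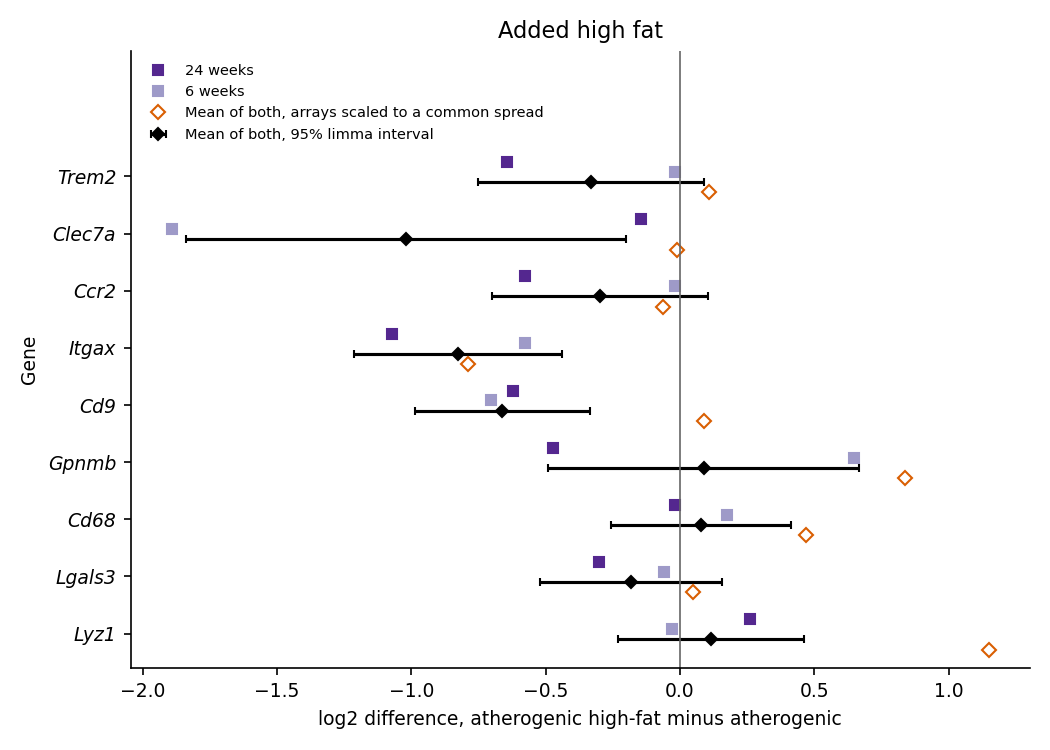
Log2 difference of atherogenic high-fat minus atherogenic (x axis) for each gene (y axis); squares are the differences within 24 and 6 weeks, black diamonds their mean with its 95% limma interval, and open diamonds the mean after scaling the arrays to a common spread. Itgax lies at -0.83 and -0.79 on both scales, while Cd9 moves to 0.09 and Lyz1 to 1.15 after scaling.

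The third comparison, 24 against 6 weeks, called none of the 9 members. It called 0% of all genes in either direction with limma, although 1353 of 13705 had an unadjusted p under 0.05. Cd9 was higher at 24 weeks within both diets, by 0.62 with high fat and by 0.53 with the plain diet, a mean of 0.57 ± 0.14 (unadjusted p = 0.00395, adjusted p = 0.343). Cd68 was lower at 24 weeks within both diets, by 0.29 and 0.09 (mean -0.19, adjusted p = 0.723). For the other 7 members the sign differed between the diets. Clec7a was 0.41 higher at 24 weeks with high fat and 1.34 lower with the plain diet, and Gpnmb 0.64 lower with high fat and 0.48 higher with the plain diet. Whether the effect of time differs between diets could not be tested with 1 array for each condition.

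Genes whose ratios were nearest to those of a member were found by the root mean square difference over the 4 arrays. This was done for the 5 members with a mean of at least 1, and other members and predicted genes were passed over. Nearest to Trem2 were Cbr1 (a difference of 0.10), Tpm1 (0.13) and Cystm1 (0.18), and 25 genes lay within 0.25. Nearest to Cd9 were Cd63 (0.24), H2-Eb1 (0.26) and Anxa2 (0.28). Nearest to Gpnmb were Lpl (0.30), Saa2 (0.31) and Col5a2 (0.34). Nearest to Lyz1 were Lcn2 (0.27), S100a11 (0.35) and Ctss (0.36). Gpnmb, Lyz1 and Clec7a had 0 genes within 0.25, and Cd9 had 1. For Clec7a, Ly6d (0.41), Galnt10 (0.50) and Plac8 (0.57) came nearest. All had their highest value on the plain 6-week array, which follows from picking them by likeness to Clec7a on these same arrays.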

How the data were processed

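Liver RNA was amplified and hybridised with the diet sample in Cy5 and chow in Cy3, per the labels and the design text. Slides were scanned, spots read with GenePix and values LOWESS-normalized in GeneSpring by the authors, per the design text. How background was subtracted and which spots were filtered is not given in the sources used here. As deposited, values are signed log10 ratios: base 10 is an inference from their spread, and whether arrays were centred further stays unknown. Medians as deposited came to 0.006, 0.006, -0.005 and -0.019 on the high-fat 24-week, high-fat 6-week, plain 24-week and plain 6-week arrays. No spot intensities were used, so the precision is limited by the number of arrays.

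Values were converted to log2. Of 28845 probes, 27870 had a value on all arrays. Platform symbols (17637 probes with 1 symbol, 64 with several, 11144 not listed) were updated to RefSeq GRCm38.p6 by gene identifier; 252 probes did not match and kept their symbol. A gene is the mean of its probes. limma 3.58.1 in R 4.3.3 (lmFit, eBayes, two-sided, Benjamini-Hochberg over 13705 genes) tested the mean of 4 arrays against 0 (3 residual degrees of freedom), and high fat and duration in an additive model (1 residual degree of freedom). The fits were tested on simulated data. Promoter sequences are from RefSeq, and all 10 genes matched by symbol.

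Members and lists were chosen with earlier results of these data known. Named are all members, up to 4 genes per list past the threshold with the largest ratios (or 2 as values), their direct ligands and adaptors, and the 3 nearest genes of members with a mean of at least 1. Alternatives were centring, scaling, probe summaries, unnamed probes, repeated values, missing values, limits on extreme ratios, robust moderation, other thresholds and models, log bases and leaving out arrays.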

Additional observations from a re-analysis of the deposited data

Results flagged for a closer look

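Itgax is listed because its high-fat minus plain difference passed the test, at -0.825 on the log2 scale (limma adjusted p = 0.0293). Its arrays also lay on opposite sides of 0 by diet, at -0.23 and -0.17 with high fat and 0.84 and 0.41 with the plain diet at 24 and 6 weeks, as did those of 19.5% of all genes. Cd9 is listed for its difference of -0.663 (adjusted p = 0.0321), with all 4 arrays above 0.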

How the results depend on the processing

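Over the alternatives run for diet over chow, the 8 members called stayed within 5 and 8; 5 came without the plain 24-week array. The count over all genes, 1640, became 2523 with unnamed probes kept, 5219 with high-fat and duration terms, 2909 and 300 at thresholds of 0.1 and 0.01, and was 759, 784, 286 and 1179 without the high-fat 24-week, high-fat 6-week, plain 24-week and plain 6-week array. For high fat, 1541 became 3869 (2263 higher, 1606 lower) with unnamed probes kept, and 3269 and 23 at thresholds of 0.1 and 0.01, where 0 members were called at 0.01. Centring arrays changed the split for high fat to 346 higher and 1047 lower, against 547 and 994. Signs turned for Lgals3 over chow with the median of probes (-0.023), and with arrays scaled to a common interquartile range for the high-fat difference of Cd9 (0.091), Lgals3 (0.047) and Trem2 (0.109) and the duration difference of Lyz1 (0.203). The cause of these changes was not tested. Leaving out an array leaves no residual degrees of freedom for high fat and duration, so these were not fitted. No paired analysis was possible because the labels give no replicate numbers to pair by; the differences within each time and within each diet are those of the additive model. Signal over background was not used here, so weak spots cannot be set apart.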
